A study of Mus musculus with 4 samples.

Results

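Gene expression in whole gonads of wild-type male mouse embryos was compared between embryonic day 15.5 (E15.5) and embryonic day 14.5 (E14.5), the last daily step of a series that began at E12.5. The comparison used 2 arrays of each stage, 4 of the 8 arrays in the series, chosen by stage alone. All embryos were of the mouse line MCH, with no mutation or treatment in any group, and no cell sort: gonads were dissected whole, so each RNA held germ cells, supporting, interstitial and vascular cells together with the blood in the vessels. The series text calls the arrays of a stage biological duplicates. The labels do not say how many embryos gave each RNA, so p-values measure the spread between these arrays. Cy3-labelled cRNA was hybridised to one-colour Agilent arrays, and all 4 arrays lay on 1 slide. The E14.5 arrays had positions 1 and 2 on it and the E15.5 arrays positions 3 and 4, so stage and position cannot be told apart. In whole tissue, fewer cells of a type and less RNA per cell cannot be told apart.

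In the fetal testis of this period germ cells lie inside cords of Sertoli cells, leave the cell cycle and pass from a state that resembles pluripotent cells to the prospermatogonial state, in which DNA methylation is laid down and transposons are silenced by small RNAs. Between the cords, fetal Leydig cells make androgens, peritubular myoid cells form the cord wall and macrophages and vessels spread through the interstitium. Meanwhile, red cells of yolk sac origin, which carry embryonic haemoglobins, are replaced in the circulation by cells from the fetal liver, and white cells leave the fetal liver for the tissues.

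A level is the log2 processed signal of a probe minus the array's 75th percentile over all probes that were not controls, so a level of 0 is at that percentile and most genes are below it. Probes well above background numbered 27045 and 27983 on E14.5 arrays 1 and 2, and 27757 and 24810 on E15.5 arrays 1 and 2, of 41174. The standard deviation of the negative controls was 3.22 and 3.52 on the E14.5 arrays and 5.49 and 4.92 on the E15.5 arrays. Its part in the calls near background was not tested. The E15.5 arrays correlated best with each other across 21986 genes (r = 0.989). Each E14.5 array, in contrast, correlated better with 1 of the E15.5 arrays than with the other E14.5 array: array 1 with E15.5 array 2 (r = 0.983) and array 2 with E15.5 array 1 (r = 0.986), against 0.982 between the E14.5 arrays. Same-numbered arrays of the stages had 0.980 and 0.972. These correlations are across genes, which are not replicates. Changes of the main genes are therefore given for both of these resembling pairs, first E15.5 array 2 minus E14.5 array 1 and then E15.5 array 1 minus E14.5 array 2. The pairs share no array, and their differences correlated at 0.609 across genes.

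E15.5 was set against E14.5 with limma in a model of all 8 arrays with a mean per stage. At a Benjamini-Hochberg adjusted p under 0.05, a call in what follows, 144 of 21986 genes (0.655%) differed, 123 higher (0.559%) and 21 lower (0.0955%) at E15.5. Of these, 81 higher and 15 lower genes had a symbol. The change of every called gene exceeded 1 on the log2 scale in both resembling pairs. The tested change is the mean of these 2 pair differences, and a call needs a small spread. Agreement of the pairs among called genes thus follows largely from their selection and is no separate support. In the plot of both pair differences, called genes lie along the diagonal, and 100 of the 123 genes called higher had the larger difference in the pair with E15.5 array 2. Genes called higher were dim: 57 of 123 were not well above background on either E14.5 array. Another 56 were above it on all 4 arrays, as were 11 of the 21 called lower. A probe was kept for the test if it was well above background on both arrays of any 1 stage. A gene dim at E14.5 could thus enter through E15.5, the stage where it is high, which the p-values do not allow for. E15.5 array 2 had the fewest probes above background and the highest floor (the lowest level among probes well above background was -5.15 on it and -6.34 to -6.05 on the other arrays), and its level was above that of E15.5 array 1 for 111 of the 123. Of the 123, 85 lay among the 2648 genes with a mean level under -5, whose median change was 0.13, and 1 among the 8659 with a mean level over 0, whose median was -0.02. Both E15.5 arrays lay above both E14.5 arrays for 31.7% of the genes under -5 and 9.41% of those over 0, against 19.8% of all genes. They lay below for 19.8% and 17%, against 16.6% of all genes. The part of that array in the calls was not tested beyond leaving it out. Without E15.5 array 2, or without either E14.5 array, limma called 0 genes (1155 to 2169 genes had an unadjusted p under 0.05), without E15.5 array 1 it called 29, without 1 of the arrays of E12.5 or E13.5 it called 76 to 78, and with the 4 arrays fitted alone it called 0 (2222 with an unadjusted p under 0.05).

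**Figure D1:**
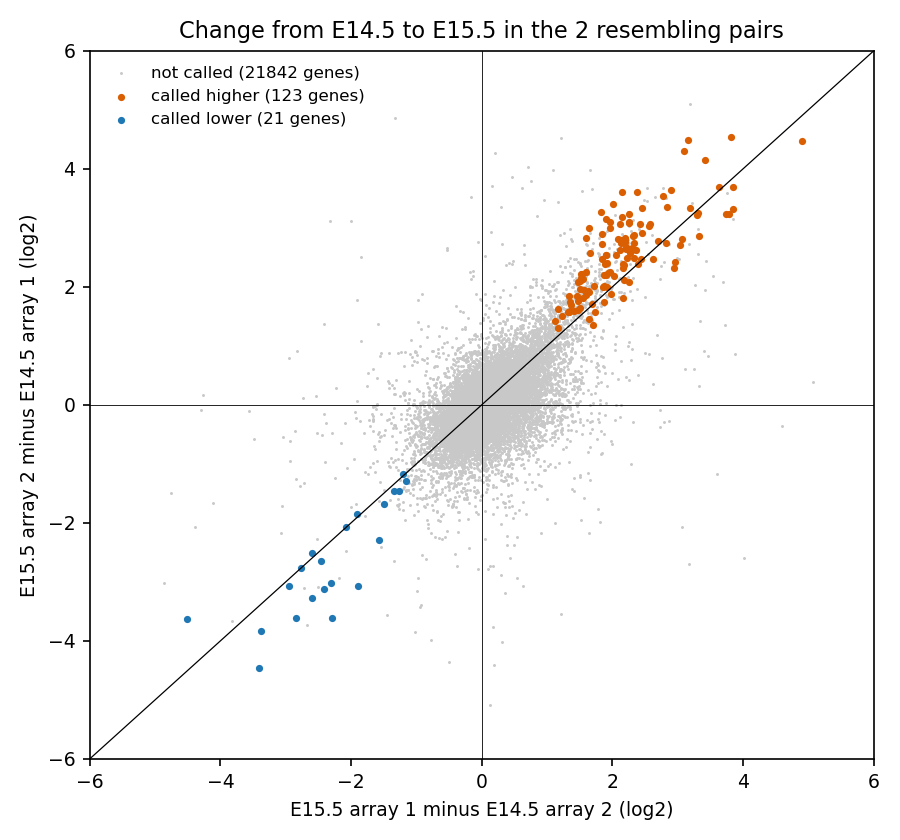
Each point is 1 of 21986 genes; axes give the log2 change from E14.5 to E15.5 in the 2 resembling pairs of arrays, and the diagonal marks equal change. The 123 genes called higher and the 21 called lower lie in the upper right and lower left, beyond 1 on both axes.

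Germ cell genes were among the genes that fell. Nanos2, an RNA-binding protein that holds male germ cells on the male path, Nanos3, its relative needed for germ cell survival, Dppa3 and Dppa5a, markers of pluripotent cells and early germ cells, and Sox2, a pluripotency transcription factor, all fell. Nanos2 had levels of -1.37 and -1.10 at E14.5 and -4.51 and -5.82 at E15.5. The E15.5 values lie below the E14.5 values without overlap, and the probe was well above background on 1 of the 2 E15.5 arrays. The change was -3.93 (SE 0.41, adjusted p = 0.0196), with -4.45 and -3.41 in the resembling pairs. Nanos3 had levels of -0.53 and -0.77 at E14.5 and -3.38 and -3.80 at E15.5, a change of -2.94 (SE 0.23, adjusted p = 0.0149) or 7.66-fold lower, and pair differences of -3.27 and -2.60.

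Dppa3 had levels of 4.23 and 4.02 at E14.5 and 1.18 and 0.62 at E15.5, a change of -3.23 (SE 0.23, adjusted p = 0.0149) that left it 9.35-fold lower. The pairs gave -3.61 and -2.84. Dppa5a, whose levels were 3.67 and 4.05 at E14.5 and 1.98 and 1.6 at E15.5, differed by -2.07 (SE 0.23, adjusted p = 0.0218), and a second probe for it differed by -2.16. For Sox2 the levels were -2.01 and -2.60 at E14.5 and -5.37 and -4.77 at E15.5. Its change was -2.77 (SE 0.31, adjusted p = 0.023), or 6.8-fold lower, with pair differences of -2.76 and -2.77, and it was well above background on only 1 of the E15.5 arrays. No array of one stage overlapped the other stage for any of these genes.

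Of 19 pluripotency genes tested, 3 fell (Dppa3, Dppa5a and Sox2), 0 rose and 16 were not called, with a median change of -0.52 against 0.014 for all genes tested. For 12 of the 19 both E15.5 arrays lay below both E14.5 arrays, as for 16.6% of all genes, and for 1 they lay above, as for 19.8% of all genes. Pou5f1, the core pluripotency factor of germ cells and a defining germ cell marker, was not called: its levels were 1.64 and 2.18 at E14.5 and 1.61 and 1.17 at E15.5, a change of -0.52 (SE 0.26, adjusted p = 0.657). Tcl1, a cofactor of AKT signalling, differed by -1.56 (SE 0.27, adjusted p = 0.0814). Among 15 genes of primordial germ cells, 1 fell (Nanos3) and 0 rose, with a median of -0.19. Ifitm1, an interferon-induced membrane protein of early germ cells, was not called, with levels of 1.91 and 1.80 at E14.5 and 0.47 and 0.45 at E15.5 and a change of -1.40 (SE 0.21, adjusted p = 0.0513). General germ cell markers were not called. The helicase gene Ddx4 had levels of 4.56 and 3.72 at E14.5 and 3.61 and 4.33 at E15.5, Dazl differed by -0.29 (SE 0.24, adjusted p = 0.908), and Kit, the receptor for stem cell factor, had -0.25 and -0.03 at E14.5 and 0.58 and 0.75 at E15.5, a change of +0.80 (SE 0.23, adjusted p = 0.26).

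The piRNA and male germ cell RNA list held 22 tested genes, of which 2 fell (Nanos2 and Gtsf1l), 0 rose and 20 were not called, with a median of -0.07. Gtsf1l, a relative of the piRNA factor Gtsf1, had levels of 1.13 and 0.54 at E14.5 and -1.78 and -1.89 at E15.5. The stages did not overlap, and the change was -2.66 (SE 0.24, adjusted p = 0.0149), or 6.34-fold lower. Exd1, a piRNA biogenesis factor, differed by -1.08 (SE 0.21, adjusted p = 0.108), and Tex14, a component of the bridges between germ cells, by -0.89 (SE 0.25, adjusted p = 0.244). For the following members, chosen after their values were seen, the stages overlapped: the PIWI protein gene Piwil2 differed by -0.06, Mael by 0.23 and Tdrd1 by -0.05.

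None of 19 tested genes of DNA methylation and demethylation was called (median -0.06, limma; 1 with an unadjusted p under 0.05). Dnmt3l, the cofactor of de novo methylation in male germ cells, was already high, at 3.47 and 3.82 at E14.5 and 4.26 and 4.14 at E15.5, with a change of +0.55 (SE 0.34, adjusted p = 0.783). Kdm1b, a histone demethylase, had levels of 3.44 and 2.88 at E14.5 and 3.94 and 4.57 at E15.5, a change of +1.10 (SE 0.29, adjusted p = 0.218). None of 19 meiosis genes was called (median -0.01, limma; 6 with an unadjusted p under 0.05). For 8 of the 19 the stages did not overlap with E15.5 lower and for 6 with E15.5 higher, against 16.6% and 19.8% of all genes. Tex11 differed by -1.14 (SE 0.21, adjusted p = 0.0924), Sycp3, of the synaptonemal complex, by -1.01 (SE 0.30, adjusted p = 0.275) and its partner Sycp1 by -0.80 (SE 0.22, adjusted p = 0.236). Rec8, a meiotic cohesin, was at 1.36 and 0.77 at E14.5 and 1.59 and 2.23 at E15.5, a change of +0.85 (SE 0.59, adjusted p = 0.842). Of 22 spermatogonial progenitor genes 1 fell (Cdh1) and 0 rose (median -0.17). None of 12 Nodal signalling genes was called (median -0.07, limma; 2 with an unadjusted p under 0.05). Among them Lefty1, a Nodal inhibitor, was at -3.95 and -4.97 at E14.5 and -4.24 and -2.72 at E15.5, and Gdf3 at -4.46 and -4.27 at E14.5 and -5.23 and -5.25 at E15.5.

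The other named genes that fell belong to no single class. Cdh1 encodes E-cadherin, the adhesion protein of epithelia and of early germ cells; it also stands in the nephric duct list, where it was the only called gene of 17. Its levels were -0.21 and -0.83 at E14.5 and -2.40 and -2.50 at E15.5, a change of -1.93 (SE 0.27, adjusted p = 0.0417). Fmn1, an actin nucleator, had 0.52 and 0.37 at E14.5 and -0.98 and -0.95 at E15.5, a change of -1.40 (SE 0.18, adjusted p = 0.0377), and a second probe for it differed by -1.62. Fbxo36, an F-box protein, differed by -1.37 (SE 0.17, adjusted p = 0.0326), and Fam163a by -2.77 (SE 0.27, adjusted p = 0.0157). Rfx3, a transcription factor of cilium genes, had levels of -4.17 and -4.03 at E14.5 and -5.24 and -5.34 at E15.5, close to background, and a change of -1.19 (SE 0.17, adjusted p = 0.0468). Il9, an interleukin gene, was not well above background on either E15.5 array, and its bound was at least 1.06-fold lower.

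**Figure D2:**
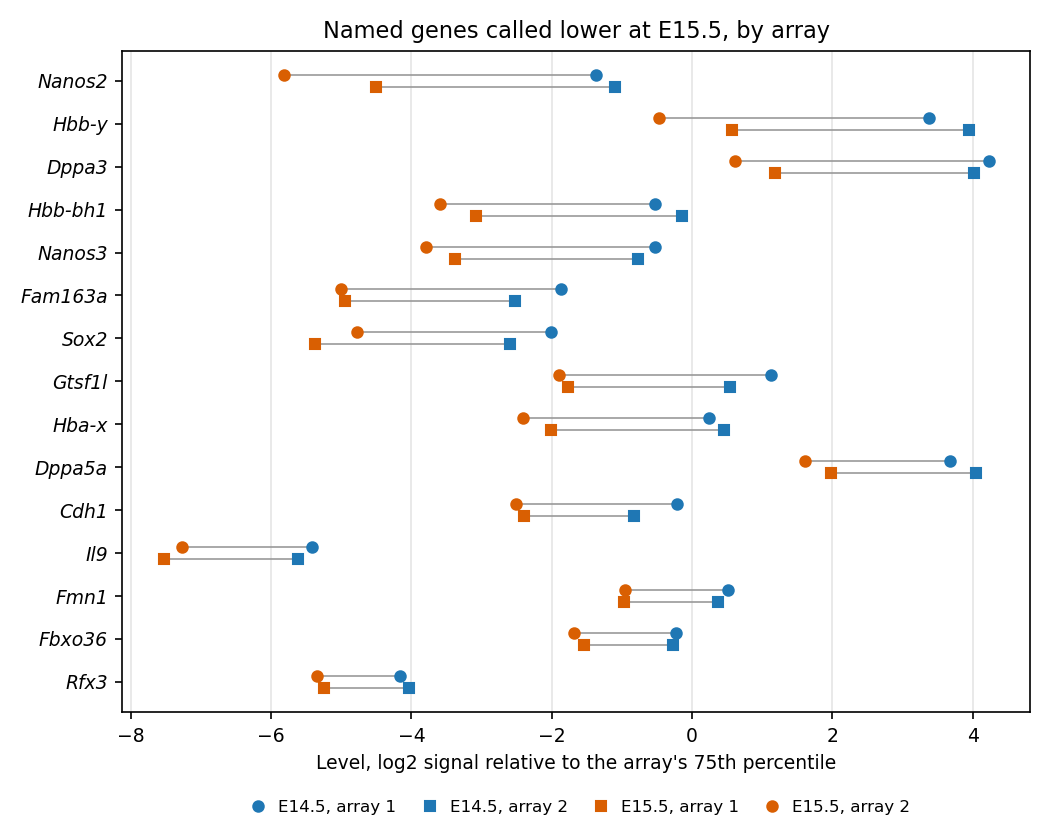
Levels (log2 signal relative to the array's 75th percentile) of the 15 genes with a symbol called lower at E15.5, on each of the 4 arrays; lines join the resembling pairs, circles for E14.5 array 1 with E15.5 array 2 and squares for E14.5 array 2 with E15.5 array 1. E15.5 points lie below E14.5 points for all 15 genes in both pairs.

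Embryonic globin genes fell, and adult-type ones were not called. The windows below, of 300 bases around the gene start from the RefSeq table of GRCm38.p6, show 2 genes of each kind. Capitals mark CACCC and CCAAT on either strand, and ATAAA on the gene's strand, letters that recur in globin promoters. Hba-x encodes the embryonic alpha-like chain and Hbb-y an embryonic beta-like chain; Hba-a1 and Hbb-bt encode chains of adult haemoglobin.
Hba-x, chr11:32276350-32276649, plus strand: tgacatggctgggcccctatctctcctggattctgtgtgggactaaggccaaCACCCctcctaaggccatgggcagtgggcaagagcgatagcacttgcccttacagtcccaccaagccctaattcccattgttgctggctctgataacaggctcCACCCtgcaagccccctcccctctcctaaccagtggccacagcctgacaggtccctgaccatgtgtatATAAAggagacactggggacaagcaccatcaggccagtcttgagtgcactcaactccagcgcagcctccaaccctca
Hbb-y, chr7:103853158-103853457, minus strand: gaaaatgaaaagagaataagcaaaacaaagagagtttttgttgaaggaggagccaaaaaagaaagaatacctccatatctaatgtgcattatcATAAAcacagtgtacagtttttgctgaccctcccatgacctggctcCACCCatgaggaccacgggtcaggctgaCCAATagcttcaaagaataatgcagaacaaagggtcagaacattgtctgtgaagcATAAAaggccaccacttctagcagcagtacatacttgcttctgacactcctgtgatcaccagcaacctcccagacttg
Hba-a1, chr11:32283422-32283721, plus strand: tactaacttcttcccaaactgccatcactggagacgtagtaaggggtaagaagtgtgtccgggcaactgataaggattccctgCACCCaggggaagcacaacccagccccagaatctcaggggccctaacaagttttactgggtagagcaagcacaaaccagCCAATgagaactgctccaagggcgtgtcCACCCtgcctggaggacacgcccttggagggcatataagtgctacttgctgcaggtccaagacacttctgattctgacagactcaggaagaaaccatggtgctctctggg
Hbb-bt, chr7:103813874-103814173, minus strand: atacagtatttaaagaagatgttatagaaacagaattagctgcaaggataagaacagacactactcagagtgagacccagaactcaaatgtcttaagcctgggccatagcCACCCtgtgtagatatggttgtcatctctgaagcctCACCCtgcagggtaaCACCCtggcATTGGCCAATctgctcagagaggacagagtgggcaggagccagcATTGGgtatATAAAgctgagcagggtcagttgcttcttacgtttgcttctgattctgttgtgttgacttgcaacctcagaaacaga
Of the 6 globin genes with a window, 4 held CACCC, 5 held CCAAT and 3 held ATAAA, and of all 32851 windows 57.5%, 37.4% and 26% did. Windows of both kinds of globin gene hold CACCC, and a match is a description of the letters only.

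Hbb-y had levels of 3.37 and 3.95 at E14.5 and 0.57 and -0.47 at E15.5, a change of -3.61 (SE 0.38, adjusted p = 0.0197) that left it 12.2-fold lower. Hbb-bh1, another embryonic beta-like gene, had -0.53 and -0.14 at E14.5 and -3.08 and -3.60 at E15.5, a change of -3.0 (SE 0.27, adjusted p = 0.0149), or 8.02-fold lower, and a second probe for it differed by -2.54. Hba-x had 0.24 and 0.45 at E14.5 and -2.01 and -2.40 at E15.5, a change of -2.55 (SE 0.24, adjusted p = 0.0157), or 5.87-fold lower. The pair differences were -3.84 and -3.39 for Hbb-y, -3.06 and -2.94 for Hbb-bh1 and -2.64 and -2.46 for Hba-x. Of the adult-type genes, Hba-a1 was at 7.53 and 7.35 at E14.5 and 7.51 and 7.64 at E15.5 and Hbb-bt, a gene added after its values were seen, at 8.10 and 7.87 at E14.5 and 7.97 and 8.25 at E15.5, changes of +0.13 (SE 0.44, adjusted p = 1) and +0.12 (SE 0.21, adjusted p = 1). Adult globin genes have near-identical copies that one probe can measure together. Of the 7 globin genes tested, 3 fell and 0 rose. Of 26 other erythroid genes 0 were called (limma; 2 with an unadjusted p under 0.05), with a median of 0.28. Slc25a37, the mitochondrial iron importer, differed by +0.77 (SE 0.24, adjusted p = 0.308), and Alas2, the first enzyme of erythroid haem synthesis, had 2.14 and 2.37 at E14.5 and 2.88 and 2.49 at E15.5. The stage means of Hbb-y were 6.82, 5.45, 3.66 and 0.05 from E12.5 to E15.5, and its change did not differ by a call from that of the first step (difference -2.24, adjusted p = 0.102).

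Genes of neutrophil granules included 3 that rose. Ngp, a granule protein of developing neutrophils, had levels of -7.70 and -8.04 at E14.5 and -3.14 and -3.23 at E15.5. It was not well above background on either E14.5 array, so the change is a bound, in the main processing, of at least 8.03-fold higher (limma, adjusted p = 0.0109). With normexp on the median and background signals Ngp differed by 1.79 on the log2 scale, less than that bound. Its probe was well above background at E15.5 only and entered the test through that stage, so the adjusted p is no separate support for the rise. Ltf, lactoferrin of the secondary granules, was above background on all 4 arrays, at -4.40 and -4.50 at E14.5 and -1.79 and -1.63 at E15.5. It rose by 2.74 (SE 0.18, adjusted p = 0.0109), or 6.67-fold, with 2.77 and 2.70 in the pairs, and a second probe rose by 2.78. Lcn2, a granule protein that binds bacterial iron carriers, rose at least 3.39-fold (adjusted p = 0.0149), from levels of -7.89 and -7.51 to -4.62 and -4.25.

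Of 32 neutrophil granule genes in the list 19 were tested, 3 rose, 0 fell, and the median change was 1.51, against 0.48 when only probes well above background on all 8 arrays were kept. The stages did not overlap with E15.5 higher for 13 of the 19, and with E15.5 lower for 1, against 19.8% and 16.6% of all genes. The share with E15.5 higher was 31.6% among genes with a mean level of -4 to -3, where the median level of this list (-3.76) lies. Of the members that were not called, Camp, the cathelicidin of secondary granules, was at -3.19 and -4.22 at E14.5 and -1.05 and -0.46 at E15.5, a change of +2.95 (SE 0.82, adjusted p = 0.244). S100a8 and S100a9, the calprotectin subunits of the cytosol, had levels of -3.10 and -2.33 at E14.5 and -1.41 and -0.99 at E15.5, and of 0.05 and 0.87 at E14.5 and 2.22 and 2.40 at E15.5, changes of +1.51 (SE 0.81, adjusted p = 0.704) and +1.85 (SE 0.96, adjusted p = 0.682). Their errors come from arrays of the earlier stages as well, since the model pools the spread of all 4 stages. For Mpo, Ctsg and Prtn3, primary granule genes chosen after their values were seen, the stages overlapped, with differences of 0.32, 0.22 and -0.26. The summed level of the 19 genes was 2.86 and 2.99 on the E14.5 arrays and 3.88 and 4.07 on the E15.5 arrays.

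Among macrophage and monocyte genes 25 were tested, 2 rose (Timd4 and Lyz1), 0 fell, and the median was 0.55. The stages did not overlap for 18 with E15.5 higher and for 1 with E15.5 lower, against 19.8% and 16.6% of all genes. Timd4, a phagocytic receptor of resident macrophages, was not well above background at E14.5 and rose at least 4.33-fold (adjusted p = 0.0149), from -6.76 and -6.77 to -3.81 and -4.35. Lyz1, a lysozyme, had levels of -1.89 and -1.74 at E14.5 and -0.58 and -0.26 at E15.5, a change of +1.40 (SE 0.20, adjusted p = 0.0442). Its near copy Lyz2 was at 0.61 and 0.74 at E14.5 and 1.79 and 2.13 at E15.5, a change of +1.28 (SE 0.23, adjusted p = 0.0873). The 2 genes are alike in sequence, so the values of both, and the call of Lyz1, are uncertain. Defining macrophage markers were not called: C1qa differed by +0.28 (SE 0.23, adjusted p = 0.902) and Aif1 by +0.18 (SE 0.23, adjusted p = 1). In the lymphocyte and mast cell list 1 of 17 tested genes rose, Ifng, which encodes interferon gamma. It was not well above background at E14.5, with levels of -8.15 and -8.48 at E14.5 and -4.71 and -4.91 at E15.5, a bound of at least 2.61-fold (limma, adjusted p = 0.0109). Like Ngp, it was well above background at E15.5 only and entered the test through that stage. Gzma, a granzyme of natural killer cells, was at -1.76 and -2.44 at E14.5 and -3.14 and -3.31 at E15.5, a change of -1.13 (SE 0.32, adjusted p = 0.254). Gzmk, another granzyme, rose by 2.44 (SE 0.22, adjusted p = 0.0149), from -5.88 and -5.63 to -3.49 and -3.14.

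A list of interferon-stimulated genes was added after values were seen, so its counts describe a pattern already noticed. Promoters of such genes often carry the interferon-stimulated response element, sought here as GAAA, any 2 bases and GAAA on both strands. The windows of Ifit1, which was called higher, and Isg15, chosen after its value was seen as a member with 3 matches, show it in capitals, where matches may overlap.
Ifit1, chr19:34640639-34640938, plus strand: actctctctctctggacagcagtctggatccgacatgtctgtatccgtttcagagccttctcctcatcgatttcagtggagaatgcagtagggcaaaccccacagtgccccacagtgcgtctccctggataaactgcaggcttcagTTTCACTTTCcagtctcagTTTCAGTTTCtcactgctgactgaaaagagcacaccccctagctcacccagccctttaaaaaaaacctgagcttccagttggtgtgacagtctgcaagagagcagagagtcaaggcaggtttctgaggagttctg
Isg15, chr4:156200769-156201068, minus strand: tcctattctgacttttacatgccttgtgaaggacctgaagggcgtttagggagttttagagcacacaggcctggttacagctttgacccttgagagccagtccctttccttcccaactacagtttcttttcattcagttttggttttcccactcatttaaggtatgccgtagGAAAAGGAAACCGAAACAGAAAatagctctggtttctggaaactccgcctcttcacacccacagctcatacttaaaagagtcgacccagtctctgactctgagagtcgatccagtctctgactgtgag
Of the 24 listed genes with a window, 14 held the element, and of all 32851 windows 3.44% did. No window was found for Usp18 and Rtp4, which were also called higher, and most genes with a window were not called. A match is a description of the letters only.

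Of 32 interferon-stimulated genes tested, 3 rose (Ifit1, Usp18 and Rtp4), 0 fell and 29 were not called. The median change was 0.86, and 0.95 and 0.82 in the resembling pairs. The stages did not overlap with E15.5 higher for 24 and with E15.5 lower for 1, against 19.8% and 16.6% of all genes. Usp18, which removes ISG15 from proteins, had levels of -4.63 and -4.29 at E14.5 and -2.17 and -1.56 at E15.5, a change of +2.60 (SE 0.37, adjusted p = 0.0457), or 6.04-fold. Rtp4, an interferon-induced chaperone of receptors, had -1.76 and -2.07 at E14.5 and 0.19 and 0.81 at E15.5, a change of +2.42 (SE 0.27, adjusted p = 0.0223), or 5.34-fold. Ifit1, an RNA-binding effector, was not well above background at E14.5 and rose at least 1.86-fold (adjusted p = 0.0417). Zbp1, a nucleic acid sensor, was at -5.49 and -6.36 at E14.5 and -2.64 and -4.14 at E15.5, a change of +2.54 (SE 0.55, adjusted p = 0.138). The stages overlapped for Bst2, with a change of 0.26, and Ifi27, with 0.09, both chosen after their values were seen. Isg15 differed by +0.35 (SE 0.25, adjusted p = 0.841). Levels within a stage differed between arrays on this list, by a median of 0.32 for E14.5 array 1 minus array 2 and of 0.43 for E15.5 array 2 minus array 1.

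Genes of secreted plasma proteins and liver metabolism, also listed after values were seen, held the most calls. Of 30 tested, 11 rose, against 0.559% of all genes, 0 fell and 19 were not called. The median was 1.22 (1.03 and 1.31 in the pairs), and 0.69 to 1.37 under the alternatives. Of the 30, 6 were not well above background on either E14.5 array. Such genes could enter the test through E15.5, where they are high, so the counts and the median are no separate support. The stages did not overlap for 25 with E15.5 higher and for 2 with E15.5 lower, against 19.8% and 16.6% of all genes. Among genes with a mean level of -4 to -3, where this list's median level (-3.79) lies, the share with E15.5 higher was 31.6%. Fgg, a fibrinogen chain, had levels of -2.63 and -3.0 at E14.5 and -0.82 and -0.51 at E15.5, a change of +2.14 (SE 0.25, adjusted p = 0.0238), or 4.42-fold. Hc, complement component C5, had -3.30 and -3.67 at E14.5 and -1.27 and -0.91 at E15.5, a change of +2.39 (SE 0.29, adjusted p = 0.03), and C3, the central complement protein, had 1.01 and 0.66 at E14.5 and 2.38 and 3.03 at E15.5, a change of +1.87 (SE 0.26, adjusted p = 0.0433). C3 was above the array's 75th percentile at both stages. Slc27a2, a fatty acid transporter and acyl-CoA synthetase, rose from -3.88 and -3.80 to -1.68 and -1.25, a difference of +2.38 (SE 0.21, adjusted p = 0.0149).

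Other members were called higher as well. Cyp2a5, a drug-metabolising cytochrome P450, rose by 2.46 (adjusted p = 0.0157) and Hpn, the protease hepsin, by 1.80 (adjusted p = 0.0479). Spp2, Serpina11, Hao1, F5 (coagulation factor V) and Hsd17b13 were not well above background at E14.5 and rose at least 2.65-, 2.68-, 5.66-, 2.45- and 3.15-fold. Ambp, the precursor of a plasma proteinase inhibitor, was at -3.75 and -4.97 at E14.5 and -1.67 and -1.20 at E15.5, a change of +2.93 (SE 0.52, adjusted p = 0.0869). Fgb, the fibrinogen beta chain, was not well above background at E14.5 either and was at -2.84 and -3.67 at E15.5 (adjusted p = 0.372). Classic fetal liver products, chosen after their values were seen, did not pass the test: Afp was at 2.32 and 2.13 at E14.5 and 3.15 and 3.01 at E15.5, and Ahsg at 1.18 and 0.68 at E14.5 and 1.72 and 2.06 at E15.5, changes of +0.85 (SE 0.40, adjusted p = 0.616) and +0.96 (SE 0.24, adjusted p = 0.2). Of 21 complement genes 2 rose (C3 and Hc), with a median of 0.42. Cfb, of the alternative pathway, differed by +1.16 (SE 0.26, adjusted p = 0.15) and C6, of the membrane attack complex, by +1.02 (SE 0.55, adjusted p = 0.704).

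Epithelial and cilium genes were also found among those that rose, most of them near background at E14.5. In the keratin family 2 of 31 tested genes rose, 0 fell, and the median was 0.48. Krt33a, a hair keratin, was above background on 1 E14.5 array, with levels of -6.38 and -6.01 at E14.5 and -2.91 and -2.08 at E15.5, a change of +3.70 (SE 0.31, adjusted p = 0.0149), and Krt26 rose at least 4.43-fold from a level not well above background. Krt71 was at -3.68 and -3.79 at E14.5 and -1.51 and -0.73 at E15.5, a difference of +2.62 (SE 0.90, adjusted p = 0.372), and Krt34 at -4.32 and -3.57 at E15.5 (adjusted p = 0.367). The keratins of simple epithelia, Krt18 and Krt19, differed by +0.48 (SE 0.25, adjusted p = 0.694) and +0.60 (SE 0.28, adjusted p = 0.607). Of 16 claudins 1 rose, Cldn18, the tight junction protein of lung and stomach, at -5.57 and -5.55 at E14.5 and -3.13 and -2.51 at E15.5, a change of +2.74 (SE 0.29, adjusted p = 0.0197). Cldn10 differed by +1.55 (SE 0.28, adjusted p = 0.092), Cldn1 by +0.61 (SE 0.23, adjusted p = 0.449) and Cldn23 by -0.57 (SE 0.45, adjusted p = 0.889).

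Cldn18 also stands in a lung epithelium list added after values were seen, in which 3 of 13 tested genes rose, 0 fell and the median was 0.50 (0.25 and 0.78 in the pairs). Sftpd, surfactant protein D, was not well above background at E14.5 and rose at least 7.22-fold. Cyp2f2, a cytochrome P450 of airway cells, had levels of -4.25 and -4.43 at E14.5 and -2.54 and -1.71 at E15.5, a change of +2.22 (SE 0.32, adjusted p = 0.0457). Foxa2, an endodermal transcription factor, was at -4.73 and -5.37 at E14.5 and -3.37 and -2.74 at E15.5, a change of +1.99 (SE 0.34, adjusted p = 0.0806). In a list of 24 motile cilium and axoneme genes, added likewise, 4 rose (Ccdc113, Nme8, Spata4 and Wdr64), 1 fell (Rfx3) and the median was 0.44. Ccdc113, a ciliary linker protein, had levels of -0.94 and -0.60 at E14.5 and 1.51 and 1.84 at E15.5, and differed by +2.45 (SE 0.24, adjusted p = 0.0157), or 5.45-fold. Wdr64 differed by +2.24 (SE 0.32, adjusted p = 0.0476), Nme8 and Spata4 by at least 3.59- and 4.08-fold, and Spag6, of the central pair, was not well above background at E14.5 and was at -4.22 and -4.29 at E15.5 (adjusted p = 0.269).

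**Figure D3:**
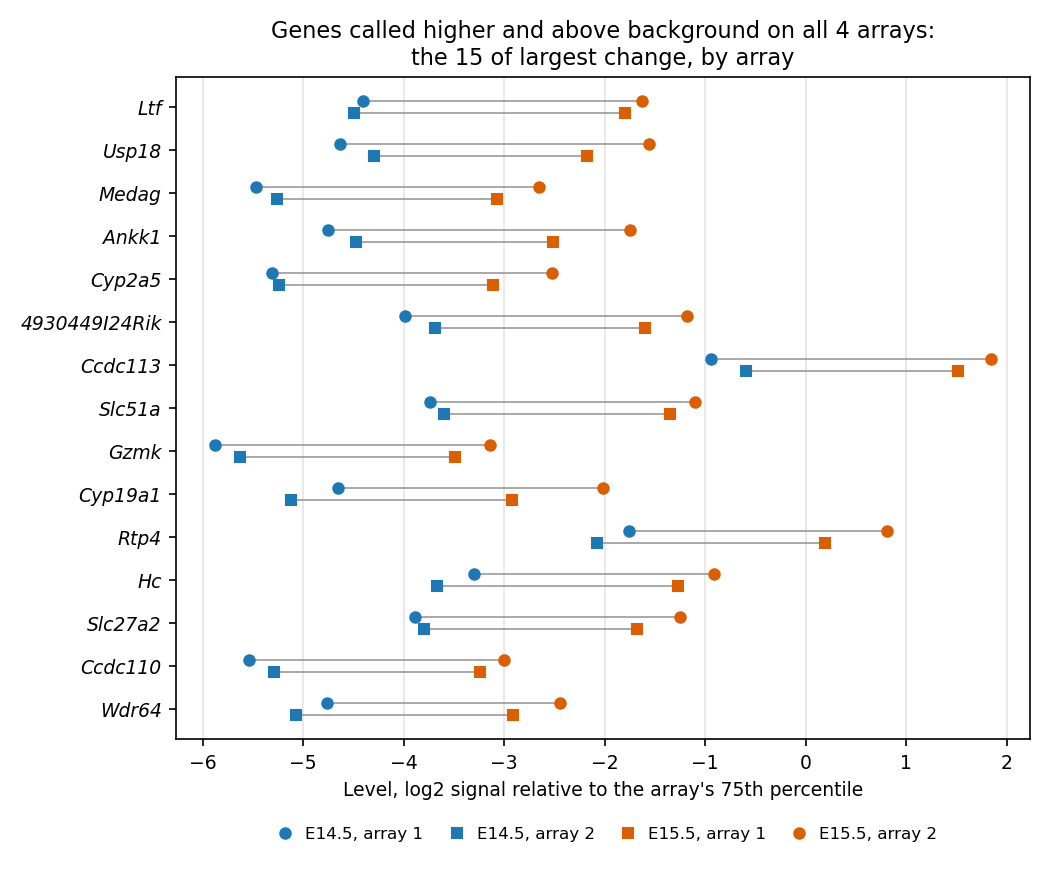
Levels (log2 signal relative to the array's 75th percentile) on each of the 4 arrays for the 15 genes of largest change among the genes with a symbol called higher that were well above background on all 4; lines and symbols join the resembling pairs, circles for E14.5 array 1 with E15.5 array 2 and squares for E14.5 array 2 with E15.5 array 1. E15.5 points lie above E14.5 points for all 15 genes, and E15.5 array 2 (circles) above E15.5 array 1 (squares).

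The muscle lists had medians above 0 and 2 called genes. Of 36 striated muscle genes tested 2 rose (Myh1 and Myh8), 0 fell, and the median was 0.42. The stages did not overlap for 21 with E15.5 higher and for 2 with E15.5 lower, against 19.8% and 16.6% of all genes. Myh8, the perinatal myosin heavy chain, was above the 75th percentile at both stages, at 0.49 and 0.60 at E14.5 and 1.94 and 2.33 at E15.5, a change of +1.59 (SE 0.20, adjusted p = 0.0332), or 3.01-fold. Myh1, an adult fast myosin, had -3.02 and -2.68 at E14.5 and -1.08 and -0.76 at E15.5, a change of +1.93 (SE 0.23, adjusted p = 0.0277), or 3.8-fold. Myh2, another fast myosin, was not called, at -2.71 and -2.60 at E14.5 and 0.17 and 0.96 at E15.5, a change of +3.22 (SE 0.61, adjusted p = 0.102). Myosin genes are near copies of each other, so their probes may not be independent. Among defining muscle markers, Myog, the myogenic factor, was at -3.35 and -3.44 at E14.5 and -2.36 and -2.03 at E15.5, a change of +1.19 (SE 0.26, adjusted p = 0.143), and Mylpf and Acta1 differed by +0.79 (SE 0.21, adjusted p = 0.217) and +0.39 (SE 0.56, adjusted p = 1). Chrna1, the muscle acetylcholine receptor, was at -4.93 and -5.10 at E14.5 and -3.30 and -2.75 at E15.5 and Ttn, titin, at -5.33 and -4.95 at E14.5 and -3.49 and -3.44 at E15.5.

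None of 22 peritubular and smooth muscle genes was called (median 0.32, limma, 4 with an unadjusted p under 0.05). None of them had E15.5 below E14.5 without overlap, whereas 9 had E15.5 above, against 16.6% and 19.8% of all genes. Cnn1, calponin of smooth muscle, had levels of 0.10 and -0.12 at E14.5 and 1.13 and 1.23 at E15.5, a change of +1.19 (SE 0.21, adjusted p = 0.0809). Pdlim3 differed by +0.98 (SE 0.22, adjusted p = 0.159), Lmod1 by +0.81 (SE 0.21, adjusted p = 0.218), Myh11 by +0.64 (SE 0.26, adjusted p = 0.516) and Acta2, the alpha-actin of myoid cells, by +0.25 (SE 0.19, adjusted p = 0.884). None of 51 extracellular matrix genes was called either (limma; 9 with an unadjusted p under 0.05). Their median was 0.27 (0.31 and 0.19 in the pairs). For 26 the stages did not overlap with E15.5 higher and for 2 with E15.5 lower, against 19.8% and 16.6% of all genes. Ltbp2, a microfibril protein, had -1.51 and -1.85 at E14.5 and -0.34 and -0.16 at E15.5, a change of +1.43 (SE 0.22, adjusted p = 0.0603), and Eln, elastin, had 0.28 and 0.52 at E14.5 and 1.42 and 1.31 at E15.5, a change of +0.97 (SE 0.23, adjusted p = 0.172). Thbs2 and Ogn differed by +0.93 (SE 0.26, adjusted p = 0.251) and +0.86 (SE 0.25, adjusted p = 0.281). Of 34 collagens, many shared with that list, 0 were called (limma; 9 with an unadjusted p under 0.05) and the median was 0.26, with Col17a1 at +1.20 (SE 0.24, adjusted p = 0.106), Col5a3 at +1.08 (SE 0.28, adjusted p = 0.218), Col11a2 at +0.82 (SE 0.19, adjusted p = 0.172), where a dimmer probe gave -0.57, and Col24a1 at +0.73 (SE 0.22, adjusted p = 0.276).

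The somatic cells that define the testis showed no called gene in any of their lists. Of 37 Sertoli and supporting cell genes 0 were called (median 0.08, limma; 5 with an unadjusted p under 0.05). Sox9, the transcription factor of Sertoli cells, was at 2.95 and 2.10 at E14.5 and 2.07 and 2.63 at E15.5, Amh, anti-Müllerian hormone, at 0.66 and 0.61 at E14.5 and 0.59 and 0.85 at E15.5, and Dhh at 5.40 and 4.55 at E14.5 and 4.68 and 5.29 at E15.5. The levels of each of these genes overlapped between stages. Ptgds differed by -0.04 (SE 0.23, adjusted p = 1). Among members that were not called either were Hsd17b1, a steroid dehydrogenase of Sertoli cells (+0.81 (SE 0.18, adjusted p = 0.146)), Etd (-0.80 (SE 0.37, adjusted p = 0.612)), Fshr, the receptor for follicle stimulating hormone (+0.72 (SE 0.28, adjusted p = 0.472)), and Sox8 (+0.60 (SE 0.25, adjusted p = 0.522)).

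Of 24 fetal Leydig cell and steroidogenesis genes 0 were called (limma, 4 with an unadjusted p under 0.05) and the median was 0.27. For 11 the stages did not overlap with E15.5 higher and for 2 with E15.5 lower, against 19.8% and 16.6% of all genes. Insl3, the hormone of testis descent, was at 5.23 and 5.73 at E14.5 and 5.84 and 5.39 at E15.5. Cyp11a1 and Cyp17a1, enzymes of androgen synthesis, were at 3.84 and 4.31 at E14.5 and 4.59 and 4.31 at E15.5, and at 4.15 and 4.72 at E14.5 and 4.88 and 4.69 at E15.5, changes of +0.37 (SE 0.25, adjusted p = 0.819) and +0.35 (SE 0.26, adjusted p = 0.872). Star, which carries cholesterol into mitochondria, differed by +0.10 (SE 0.22, adjusted p = 1), and Agt, angiotensinogen, was at 2.11 and 1.73 at E14.5 and 0.80 and 1.36 at E15.5, a change of -0.84 (SE 0.25, adjusted p = 0.287). Inhba and Stard6 differed by +0.48 (SE 0.18, adjusted p = 0.436) and +0.65 (SE 0.31, adjusted p = 0.635). Mc2r, a defining marker of adrenal cortex, differed by -0.16 (SE 0.22, adjusted p = 1). Of 27 cholesterol genes 0 were called (median 0.19, limma; 1 with an unadjusted p under 0.05), with medians of 0.34 and -0.02 in the pairs. Insig1, Tm7sf2 and Stard4 differed by +0.43 (SE 0.39, adjusted p = 0.93), +0.45 (SE 0.36, adjusted p = 0.898) and -0.60 (SE 0.23, adjusted p = 0.472). Of 28 Hedgehog response and interstitial progenitor genes 0 were called (median 0.00, limma; 0 with an unadjusted p under 0.05), with Ptch1 at -0.39 (SE 0.41, adjusted p = 0.965) and Hhip at -0.40 (SE 0.17, adjusted p = 0.557). Dlk1 was at 2.91 and 4.35 at E14.5 and 4.50 and 3.50 at E15.5 and Wnt5a differed by -0.38 (SE 0.35, adjusted p = 0.934). A steroid and xenobiotic P450 list added after values were seen had 3 called of 13 tested, all higher: Cyp2a5, Cyp2f2 and Cyp19a1, the aromatase that makes oestrogen. Cyp19a1 had levels of -4.66 and -5.12 at E14.5 and -2.92 and -2.02 at E15.5, a change of +2.42 (SE 0.34, adjusted p = 0.0417). Cyp2c29 differed by +1.47 (SE 0.93, adjusted p = 0.798).

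Vessels, ovarian pathway genes and surface epithelium likewise held no called gene. Of 25 endothelial genes the median was 0.09 (limma; 1 with an unadjusted p under 0.05), and Kdr, the receptor of vascular growth factor, was at -0.01 and -0.15 at E14.5 and -0.42 and -0.67 at E15.5, a difference of -0.47 (SE 0.19, adjusted p = 0.511). Pecam1 and Cdh5 differed by +0.03 (SE 0.34, adjusted p = 1) and +0.27 (SE 0.21, adjusted p = 0.889), Egfl7, Eng and Gpihbp1 by 0.41, 0.41 and 0.44. Of 17 ovarian pathway and Wnt target genes the median was 0.02 (limma; 2 with an unadjusted p under 0.05). Foxl2, the ovarian transcription factor, was above background on the E14.5 arrays only, with a bound of at least 1.08-fold lower, and Sp5 and Rprm differed by -0.78 (SE 0.26, adjusted p = 0.356) and +0.49 (SE 0.24, adjusted p = 0.653). Of 12 coelomic epithelium genes the median was 0.05 (limma; 1 with an unadjusted p under 0.05). Msln, mesothelin, was at -2.49 and -2.98 at E14.5 and -1.48 and -1.18 at E15.5, a change of +1.41 (SE 0.23, adjusted p = 0.0663). Upk3b and Lrrn4 differed by -0.13 (SE 0.27, adjusted p = 1) and -0.42 (SE 0.27, adjusted p = 0.796).

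Cell cycle lists held no called gene by limma. Of 28 genes of G2 and M phase 0 had an unadjusted p under 0.05, the median was -0.20, and in the pairs -0.17 and -0.11. The stages did not overlap with E15.5 lower for 7 and with E15.5 higher for 0, against 16.6% and 19.8% of all genes. Hmmr, a spindle protein, differed by -0.55 (SE 0.27, adjusted p = 0.66), Ccnb1 by -0.36 (SE 0.25, adjusted p = 0.848), Kif20a by -0.36 (SE 0.18, adjusted p = 0.637) and Cdc25c by -0.31 (SE 0.36, adjusted p = 0.988). Of 27 S phase genes 0 had an unadjusted p under 0.05, and the median was -0.14, with Mcm10 at -0.33 (SE 0.22, adjusted p = 0.814), Rrm2 at -0.28 (SE 0.21, adjusted p = 0.882), Ccne1 at -0.22 (SE 0.21, adjusted p = 0.944) and Orc1 at -0.22 (SE 0.19, adjusted p = 0.924). Of 26 CDK inhibitors and G1 regulators 2 had an unadjusted p under 0.05, and the median was -0.04. Cdkn1a, the p53 target p21, was at -2.20 and -2.23 at E14.5 and -2.89 and -3.12 at E15.5, a change of -0.79 (SE 0.19, adjusted p = 0.189). Cdkn2a, which encodes p16 and ARF, was at -3.11 and -4.0 at E14.5 and -2.97 and -1.92 at E15.5, a change of +1.10 (SE 0.44, adjusted p = 0.494), and Cdkn1b and Ccnd2 differed by -0.77 (SE 0.39, adjusted p = 0.676) and +0.61 (SE 0.34, adjusted p = 0.719). The 14 reference genes, 0 of them with an unadjusted p under 0.05, had a median of -0.04, from Ppia at -0.36 (SE 0.32, adjusted p = 0.93) to Actb at +0.37 (SE 0.74, adjusted p = 1). Actb itself differed more between the arrays of a stage than between stages, at -1.57 and 0.88 at E14.5 and 0.49 and -0.45 at E15.5. Gusb differed by +0.25 (SE 0.17, adjusted p = 0.819).

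Nerve, duct and other families held few calls. Of 25 sympathoadrenal and neuronal genes 1 rose, Slc6a2, the noradrenaline transporter, by at least 4.21-fold from a level not well above background, and the median was 0.53. Slc18a2, the vesicular monoamine transporter, was at -4.02 and -3.41 at E14.5 and -2.50 and -1.99 at E15.5, a change of +1.47 (SE 0.32, adjusted p = 0.143); Pnmt, the adrenaline enzyme, and Chgb differed by +1.17 (SE 0.25, adjusted p = 0.139) and +1.08 (SE 0.30, adjusted p = 0.254). The change was above 0 for 21 of the 25 and below 0 for 4. Of their defining markers, Th differed by -0.85 (limma, adjusted p = 0.734) but was above background on only 1 of the 4 arrays. Dbh was not among the genes tested. The 11 Schwann cell genes had a median of 0.05 and no call (limma; 1 with an unadjusted p under 0.05). Mal differed by -0.42 (SE 0.24, adjusted p = 0.739) and Egr2 by +1.07 (SE 0.35, adjusted p = 0.336), while Erbb3 and Foxd3 were not well above background on any E15.5 array. In the nephric duct list, with a median of -0.18, the defining genes Pax8, Lhx1 and Cdh16 differed by +0.11 (SE 0.43, adjusted p = 1), -0.22 (SE 0.18, adjusted p = 0.9) and +1.02 (SE 1.05, adjusted p = 0.962), Emx2 differed by -0.49 (SE 0.32, adjusted p = 0.817) and Bsnd by -0.38 (SE 0.34, adjusted p = 0.929), and Pax2 was not well above background on any of the 4 arrays.

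Of 13 crystallins 1 rose, Cryba1, by at least 4.34-fold, and the median was 0.30, with Cryba4 and Crybb1 at +0.62 (SE 0.19, adjusted p = 0.295) and +0.62 (SE 0.40, adjusted p = 0.808), and Cryba2 at -4.59 and -4.84 at E15.5. None of 29 Hox genes was called (median 0.10, limma; 3 with an unadjusted p under 0.05). Hoxa10 differed by -0.79 (SE 0.32, adjusted p = 0.503), and Hoxb2, Hoxa4 and Hoxd4 by +0.87 (SE 0.34, adjusted p = 0.475), +0.81 (SE 0.25, adjusted p = 0.291) and +0.67 (SE 0.29, adjusted p = 0.554). None of the 7 genes tested of the Rhox cluster and Esx1 was called (median -0.23, limma; 2 with an unadjusted p under 0.05). Rhox5 was at 5.14 and 4.28 at E14.5 and 3.33 and 3.71 at E15.5, a change of -1.19 (SE 0.31, adjusted p = 0.216), and Esx1 at -2.50 and -2.40 at E14.5 and -1.23 and -1.08 at E15.5, a change of +1.30 (SE 0.25, adjusted p = 0.106). Rhox genes have near copies, so their probes are uncertain. Neither 33 imprinted genes (median 0.02, Calcr +0.99 (SE 0.32, adjusted p = 0.336), Tspan32 -0.80 (SE 0.18, adjusted p = 0.162), Kcnq1ot1 +0.74 (SE 0.33, adjusted p = 0.576)) nor 20 genes of retinoic acid metabolism and response (median 0.17, Crabp2 -0.90 (SE 0.18, adjusted p = 0.113), Rbp4 +0.67 (SE 0.24, adjusted p = 0.414), Rxrg +0.65 (SE 0.28, adjusted p = 0.557), Stra6 +0.62 (SE 0.52, adjusted p = 0.91)) held a called gene (limma; 3 and 2 with an unadjusted p under 0.05). Of 19 immediate early and heat shock genes 0 were called (limma; 1 with an unadjusted p under 0.05) and the median was 0.05, with Egr1, Dusp1 and Fos at +0.36 (SE 0.38, adjusted p = 0.963), +0.32 (SE 0.24, adjusted p = 0.884) and +0.27 (SE 0.17, adjusted p = 0.798). Y-linked genes were measured on all 4 arrays, Eif2s3y at 2.52 and 1.94 at E14.5 and 1.83 and 2.05 at E15.5, and Kdm5d at -1.21 and -1.36 at E14.5 and -1.42 and -1.23 at E15.5, as the label male requires.

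**Figure D4:**
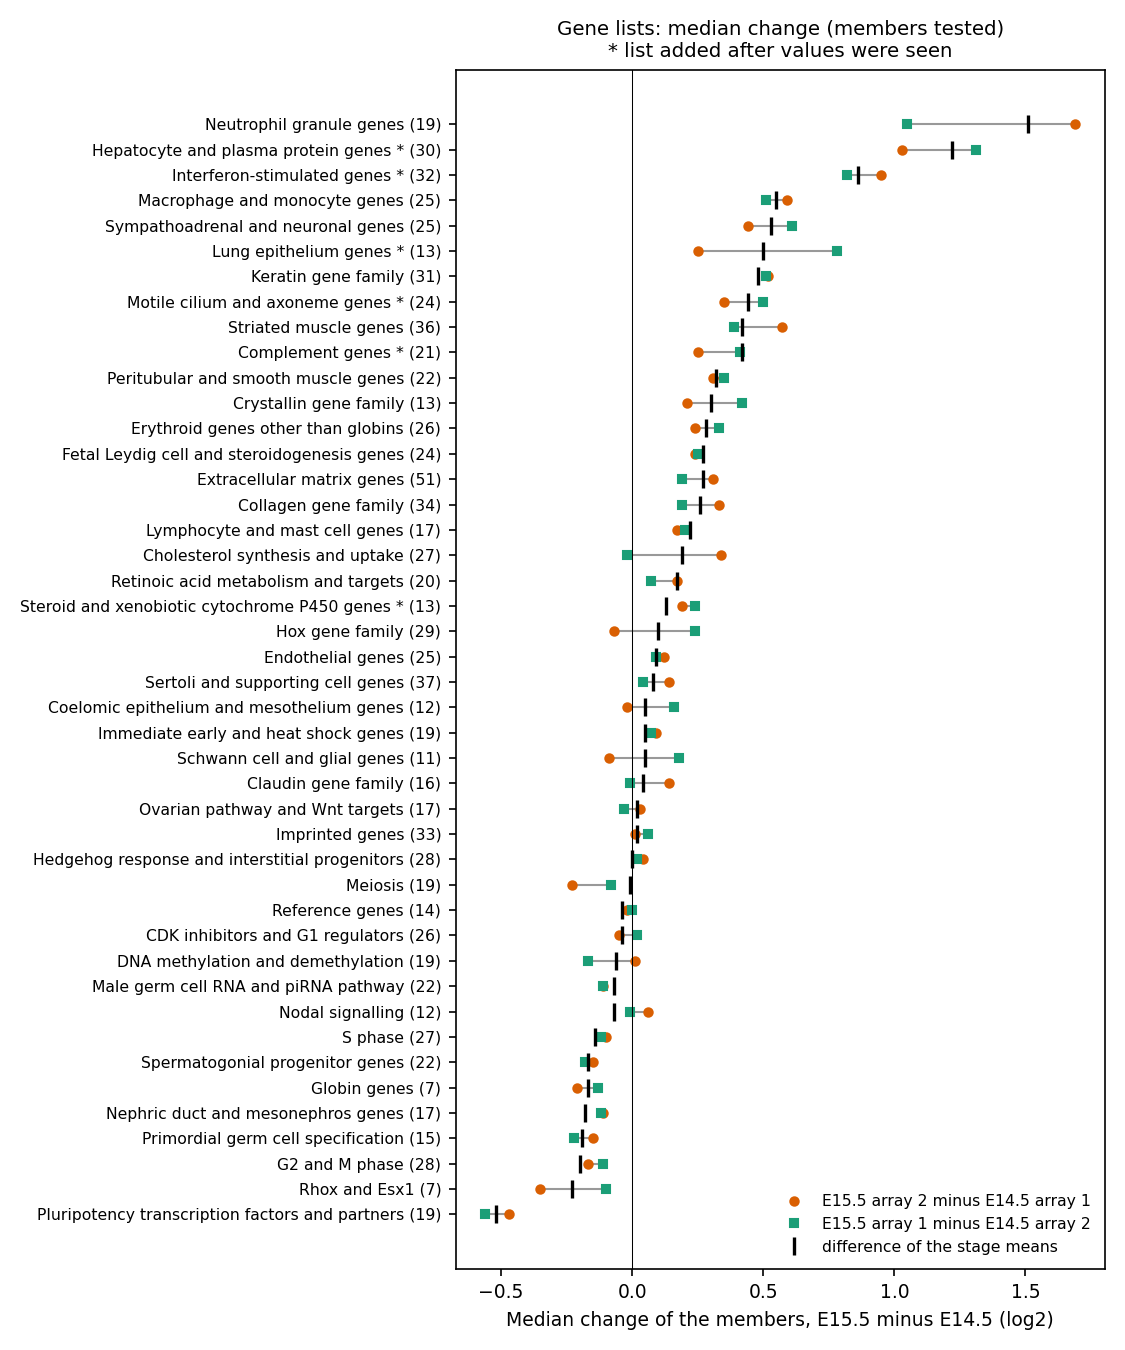
Median log2 change of the members of each gene list from E14.5 to E15.5, with the number of members tested in parentheses; orange circles and green squares give the medians in the 2 resembling pairs and black bars the median of the stage differences. Pluripotency genes lie at -0.52 and neutrophil granule genes at 1.51 (0.48 when only probes well above background on all 8 arrays are kept); lists marked with an asterisk were added after values were seen.

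Outside these lists, the genes called higher that were well above background on all 4 arrays included a transporter subunit of bile acids and steroids, Slc51a, at -3.74 and -3.60 at E14.5 and -1.35 and -1.10 at E15.5, a change of +2.45 (SE 0.24, adjusted p = 0.0157). Medag, of fat cell precursors, rose by 2.51 (adjusted p = 0.0269; a second probe 2.44), Ankk1, a kinase, by 2.48 (adjusted p = 0.023), Ccdc110 by 2.30 (adjusted p = 0.0149) and the unnamed transcript 4930449I24Rik by 2.45 (adjusted p = 0.0149). These 4 were below the array's 75th percentile at both stages. Of the largest changes among genes not well above background at E14.5, Olah, an enzyme of fatty acid synthesis, rose at least 2.3-fold, Elf5, an epithelial transcription factor, 3.32-fold, Pde6a, a phosphodiesterase of photoreceptors, 4.73-fold and Arpp21 3.59-fold. Gm136, Atp13a4 and Trim42 had bounds of 3.07-, 2.49- and 2.42-fold. Cdhr1, a photoreceptor cadherin, and Prb1, a proline-rich protein, were above background on 1 E14.5 array and differed by +2.82 (SE 0.28, adjusted p = 0.0159) and +2.71 (SE 0.33, adjusted p = 0.0296). The gene nonagouti, of hair pigment, was called higher too from a level not well above background.

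The step was also set against the first daily step, E13.5 minus E12.5, by the difference of the 2 changes in the same model. The arrays of those stages lie on other slides: arrays 1 of E12.5 and E13.5 share slide 1, and arrays 2 share slide 2. The differences between their arrays (1 minus 2) correlated at 0.646 between E12.5 and E13.5 across genes. The model ignores this pairing and treats the arrays as independent, which the p-values rest on. Of 21986 genes, 516 (2.35%) changed differently in the last step, 239 with a higher and 277 with a lower value. Of these, 100 were also called between E14.5 and E15.5. With slide as a block 649 differed between steps. Nanos2 had stage means of -1.78, 1.33, -1.24 and -5.17 from E12.5 on, a first change of 3.12 and a difference of -7.05 (SE 0.58, adjusted p = 0.00613) between steps. Nanos3 had -1.64, 0.45, -0.65 and -3.59, a difference of -5.03 (adjusted p = 0.0032). Gtsf1l had 0.23, 1.91, 0.83 and -1.83 (difference -4.34, adjusted p = 0.00589), and Dnmt3l differed by 5.10 in the first step (difference -4.55, adjusted p = 0.011). Among Leydig cell genes Agt and Cyp11a1 differed by 2.71 and 2.81 in the first step, with differences of -3.55 (adjusted p = 0.00892) and -2.44 (adjusted p = 0.0257).

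The arrays of a stage differed along a pattern common to both stages. For each gene E14.5 array 1 minus array 2 was set beside E15.5 array 2 minus array 1. These differences, which share no array, had the same sign for 76.6% of 21986 genes and correlated at 0.589 across genes, and at 0.732 over the 18947 genes above background on all 4 arrays. Both exceeded 1 in the same direction for 350 genes, 291 of them lower on E14.5 array 1 and E15.5 array 2. The change between stages exceeded both duplicate differences for 5981 genes. Lars2, a mitochondrial leucyl-tRNA synthetase, had levels of -1.20 and 6.06 at E14.5 and 4.46 and -0.74 at E15.5, differences of -7.26 and -5.20 between the arrays. Cdk5r2 had -4.12 and 1.95 at E14.5 and 0.28 and -4.56 at E15.5, Pigt 0.76 and 6.67 at E14.5 and 4.74 and 0.64 at E15.5, and Klf2, a transcription factor in the pluripotency list, 2.51 and 6.70 at E14.5 and 5.82 and 2.55 at E15.5. On the other side Ank2 had -0.70 and -2.78 at E14.5 and -1.60 and -0.31 at E15.5, and Tmem47 -0.09 and -1.96 at E14.5 and -1.63 and -0.44 at E15.5. These genes were chosen for this difference, after their values were seen, and the stage means of Lars2, Cdk5r2, Pigt and Klf2 differed by less than the arrays of a stage.

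**Figure D5:**
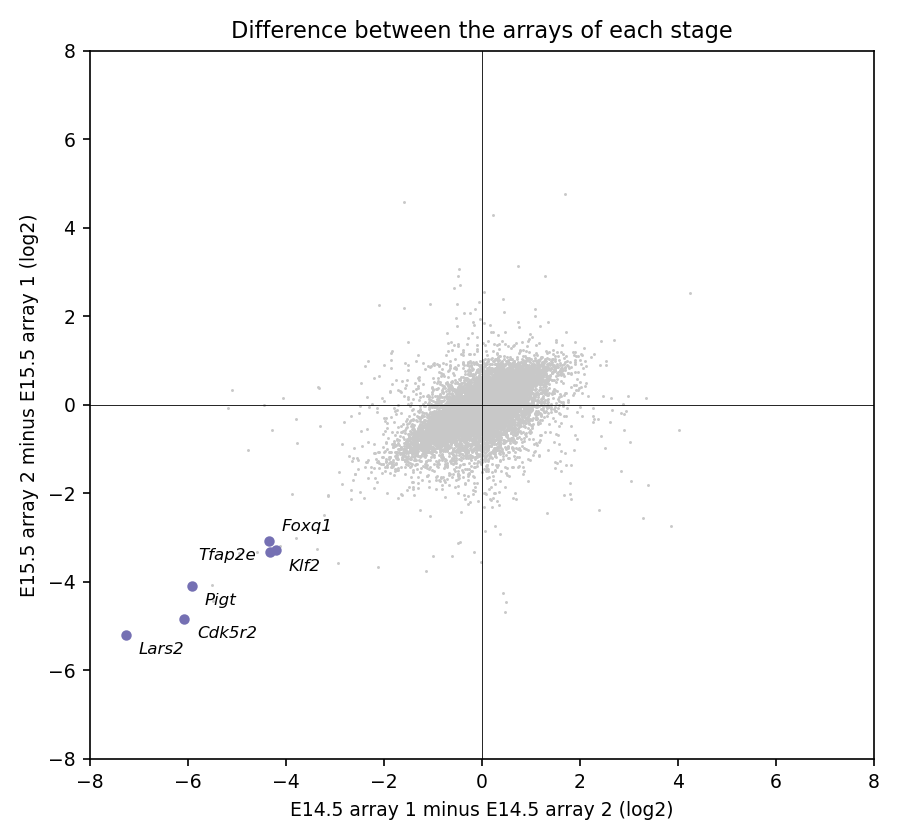
Each point is 1 of 21986 genes; axes give the log2 difference between the arrays of E14.5 (array 1 minus array 2) and of E15.5 (array 2 minus array 1). Points stretch from lower left to upper right (r = 0.589 across genes), and the 6 genes in purple, Lars2 at the far end, are lower on E14.5 array 1 and E15.5 array 2.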

How the data were processed

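Per the file headers, Agilent Feature Extraction 9.5.3.1 made the scanner files of E14.5 and E15.5 (9.1.3.1 for E12.5 and E13.5; the submitters' processing notes name 9.5), and the deposited processed signal is a spot intensity on a linear scale with background subtracted within the array. The authors also deposited a table with 1 column per stage, a linear ratio to a centre that is not stated; it served only to check directions. Its columns had medians of 0.898 for E14.5 and 0.859 for E15.5, and all 144 called genes had the same direction in it. The columns belong to the same samples as the scanner files, so this checks the processing and adds no separate evidence.

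Spots of a probe were averaged without outlier spots, and log2 intensity was scaled by each array's 75th percentile. Of 41174 probes, the 28188 that stood well above background on the 2 arrays of any stage were kept. RefSeq accessions gave 22951 probes (55.7%) 1 symbol of GRCm38.p6, 0 several, and 18223 none. Of 21986 genes tested, by the probe of highest mean, 13474 had a symbol. limma 3.58.1 (R 4.3.3) fitted all 8 arrays with 4 residual and 2.57 prior degrees of freedom, which limit the precision. It was also run on simulated data whose arrays varied independently. Those data lack the correlation of duplicate differences between stages (0.589 for E14.5 and E15.5), so the run does not test its effect on the p-values. A gene that was well above background on neither array of its dimmer stage has a bound. In its dimmer stage, an array's value was raised to the lowest level that was well above background there, unless it was higher already. The brighter stage was taken at its measured mean. All bounds hold for the main background handling and scaling only, and changes under an alternative can be smaller. Named were all genes called lower, the 25 of largest change called higher, the 15 of largest change among those above background on all 4 arrays, every called member, the 4 of largest change and defining markers of each list, and the 10 of smallest p each way for the comparison of steps. The comparison, lists and named members were chosen with earlier results of these data known. Promoter windows came from RefSeq, and 6 globin and 24 interferon-stimulated genes matched. Alternatives covered background, scaling, filters, probes, arrays in the fit, blocks, floor, trend and arrays left out. Not every gene under this rule is named, and some are not reported here.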

Additional observations from a re-analysis of the deposited data

Results flagged for a closer look

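The change between E14.5 and E15.5 differed by limma's test of the difference from that between E12.5 and E13.5 for the 10 genes with a symbol of smallest p in each direction. Each value is the last change minus the first, and the adjusted p-values lie between 0.00244 (Rrad) and 0.00875 (Nr1i2). Differences below 0 were found for Ctag2 (-6.36), Rrad (-6.27), St8sia3 (-5.58), Drc1 (-5.45), Nanos3 (-5.03), Cd86 (-5.02), Nr2e1 (-4.64), Slc16a11 (-4.12), Fabp9 (-3.88) and Lypd9 (-3.55). Of these Nanos3 was the only one called between E14.5 and E15.5. Rrad, a small GTPase, had stage means of -3.94, 1.94, 3.25 and 2.86, and Drc1, of the ciliary axoneme, -2.45, 2.40, 3.91 and 3.32. Differences above 0 were found for Cdhr1 (6.27), Scgn (4.50), Ngp (4.30), Proc (4.0), 1700024G13Rik (3.93), Nr1i2 (3.79), Zan (3.63), Tspan1 (3.61), Ifng (3.53) and Slc27a2 (3.44). Cdhr1 had stage means of -3.41, -6.86, -5.87 and -3.05, and Zan of -3.39, -5.58, -4.96 and -3.51. Of the 20 genes, 9 had no array well above background in at least 1 stage, so their values are fitted differences that include background and do not measure a size: Ctag2, St8sia3, Cd86 and Nr2e1 at E12.5, Cdhr1 at E13.5, Ngp and Ifng at E12.5, E13.5 and E14.5, and Scgn and Nr1i2 at E13.5, E14.5 and E15.5.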

How the results depend on the processing

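The direction of the 66 named genes that were called was kept in all 1640 values computed under the alternatives. Much of this follows from their selection and is no separate support. The stages did not overlap for any called gene, so leaving out 1 array could not turn its direction. Blocks, trend and the fit of the 4 arrays alone keep the same mean change. The calls of the 66 genes were less stable. With normexp or the 4 arrays alone 0 of the 66 were still called, with eBayes with trend 20, and with a floor before log2 50. Median scaling kept 54, and keeping outlier spots all 66. Of the 184 others, 32 changed sign in 68 of 4718 values, Dhh and Amh under median scaling among them. The counts of calls moved more (144 genes, 123 higher and 21 lower, and 516 for the last step against the first). With normexp on the median and background signals (a mean signal column was not used) all 4 counts were 0 by limma, with 319 genes and 666 genes for the comparison of steps at an unadjusted p under 0.05. Median scaling gave 79 higher and moved the median of all genes from 0.014 to -0.13. With no filter 13 were lower, 164 differed between steps and that median was 0.133. Probes above background on all 8 arrays gave 22 genes, 14 higher and 8 lower, and 325 between steps, and on all 4 arrays 36, 27 and 9; these test fewer genes. Slide as a block gave 226 and 197 higher, and a floor before log2 401, 359 higher and 42 lower. With trend, eBayes gave 25, 11 higher and 14 lower, so genes called higher no longer outnumbered those called lower. The 4 arrays alone gave 0, 0 and 0 (2222 at an unadjusted p under 0.05), and with trend, chosen after seeing the data, 0, 0 and 0 (2104). The cause of these differences was not tested.

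The file number as a replicate block gave 89 genes, 72 higher, and 230 between steps; the labels do not say that the numbers pair samples. The crossed pairing as a replicate block gave 130, 113 higher and 17 lower, and, over the 4 arrays alone, chosen after seeing the data, 1070, 921 and 149. Leaving out 1 array gave 0 to 78 genes, 0 to 66 higher, 0 to 13 lower and 102 to 401 between steps; a lone array is then assumed to vary like the other stages. Several list medians changed sign under some alternatives. Among them were CDK inhibitors and G1 regulators (-0.27 to 0.04), cholesterol genes (-0.07 to 0.31) and Rhox and Esx1 genes (-0.54 to 0.13). The median of S phase genes ranged from -0.38 to 0. The authors' deposited table had a median change of -0.234 over all genes.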
